A study of Mus musculus with 27 samples.

Results

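The 9 genes described here encode receptors, sensors and transcription factors of type I interferon signalling: Ifnar1, Ifnar2, Ddx58, Ifih1, Stat2, Irf9, Irf3, Irf7 and Irf1. They were found by symbol among the 43346 genes of a count table from mouse hepatocytes, the main cell type of the liver, and all 9 were among the 14482 genes that passed the filter on low counts. The table holds 27 RNA-seq libraries from livers of female mice aged 12 weeks, 3 libraries for each of 9 inbred strains. The classical laboratory strains are A/J, C57BL/6J, 129S1/SvImJ, NZO/HlLtJ, NOD/ShiLtJ and DBA/2J, and the strains derived from wild mice are PWK/PhJ, CAST/EiJ and WSB/EiJ; the labels give no treatment, transgene or infection for any of them. The study asked how genetic variation between the strains relates to variation in gene expression and in chromatin marks; only the expression data are analysed here. The labels call the 3 libraries of a strain biological replicates, and the tests measure the spread between them.

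Type I interferons are secreted proteins that cells make when they detect foreign nucleic acid. RIG-I, encoded by Ddx58, and MDA5, encoded by Ifih1, are cytoplasmic helicases that bind viral RNA and signal through the adaptor MAVS to the factors IRF3 and IRF7, which switch on interferon genes. Interferon binds a receptor made of IFNAR1 and IFNAR2, whose kinases TYK2 and JAK1 phosphorylate STAT2. STAT2 and IRF9 then act in the complex ISGF3, which binds the interferon-stimulated response element (ISRE) at target genes. Several of the genes are themselves targets of interferon, so the pathway can feed on its own output. A second element, the gamma-activated site (GAS), is bound by STAT dimers, and IRF1 is a factor induced through it.

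The promoter letters of the 9 genes were read from RefSeq (GRCm38.p6), as windows from 250 bases before to 50 bases after each annotated start. They are the C57BL/6J reference letters, and those of the other strains were not read. The ISRE core GAAANNGAA and the GAS core TTCNNNGAA were searched on both strands, and no window of the 9 genes held both. The ISRE core was in windows of 3 of the 9 genes, against 9.76% of 27025 genes with such a window, and the GAS core in those of 3 others, against 9.55%. The matches are shown because they separate the 9 genes by element. Each is printed in the direction of its gene with the core in capitals; an ISRE core on the other strand reads as its reverse complement.
Stat2, 221 bases upstream: cctggtTTCAGTTTCctttcc
Ddx58, 4 bases downstream: ggcagtTTCGATTTCctatgg
Ifih1, 112 bases upstream: ttcgcgTTCCCTTTCctgttt
Ifih1, 33 bases downstream: agaatcGAAACAGAAaccgat
Irf1, 90 bases upstream: cctgatTTCCCCGAAatgatg
Ifnar1, 5 bases upstream: ggggcgTTCACGGAAggggcg
Ifnar2, 214 bases upstream: aaggccTTCCTGGAAgaagag
Distances run from the annotated start to the first base of the core. The upstream part of the Ifih1 window, chr2:62646256-62646505 on the minus strand, is given in full because Ifih1 was the member with more than a single match, and that of Irf7, chr7:141266425-141266674 on the minus strand, because Irf7 varied most between strains.
Ifih1: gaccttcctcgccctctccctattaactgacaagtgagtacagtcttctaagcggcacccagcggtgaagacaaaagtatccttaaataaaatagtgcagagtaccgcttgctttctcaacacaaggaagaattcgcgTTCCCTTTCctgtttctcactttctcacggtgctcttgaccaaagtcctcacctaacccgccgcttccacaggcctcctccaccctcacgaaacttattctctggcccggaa
Irf7: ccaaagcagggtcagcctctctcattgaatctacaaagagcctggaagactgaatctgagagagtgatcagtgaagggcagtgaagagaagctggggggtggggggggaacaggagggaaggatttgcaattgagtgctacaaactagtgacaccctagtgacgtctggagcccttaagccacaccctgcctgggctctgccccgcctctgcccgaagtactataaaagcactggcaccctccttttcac
Neither core was in the windows of Irf7, Irf9 or Irf3, which says only that these letters are not in these windows. For comparison, 10 of the 16 genes with a window in a list of 22 interferon response genes held the ISRE core. A match is a description of letters and not a tested binding site.

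Library totals ran from 17015956 to 35078511 estimated counts. Values below are in CPM, counts per unit of library total after adjustment by TMM, a factor that corrects for differences in RNA composition. The summed level of 10 hepatocyte markers was between 108900 and 316000 CPM. That of 12 Kupffer cell markers was between 37.9 and 429.1 CPM, and that of 10 endothelial markers between 46.1 and 557.7 CPM. Of 12 lymphocyte and plasmacytoid dendritic cell markers, 11 were at 0 in at least 1 library. In such samples, fewer cells of a type and less RNA per cell cannot be told apart. Strain names below stand for the mean ± SD of 3 libraries, and "called" means an adjusted p under 0.05 in edgeR's quasi-likelihood test over all genes tested.

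The strain effect was called for 8 of the 9 genes. Across all genes tested, 74.2% were called in the same test, so a strain effect as such does not set the 9 genes apart. The size of the difference varied widely among them. From the lowest strain mean to the highest, Irf7 spanned 22.2-fold, Irf9 3.19-fold, Ifnar1 2.46-fold, Ddx58 2.23-fold, Ifih1 2.19-fold, Ifnar2 2.04-fold, Stat2 1.88-fold, Irf1 1.498-fold and Irf3 1.31-fold. The median over the 9 genes was 2.19-fold, beside 2.27-fold over all genes tested. CAST/EiJ was the lowest strain for 5 of the 9 (for 2460 of all 14482 genes tested), and DBA/2J the highest for 5 (for 885 of all).

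**Figure D1:**
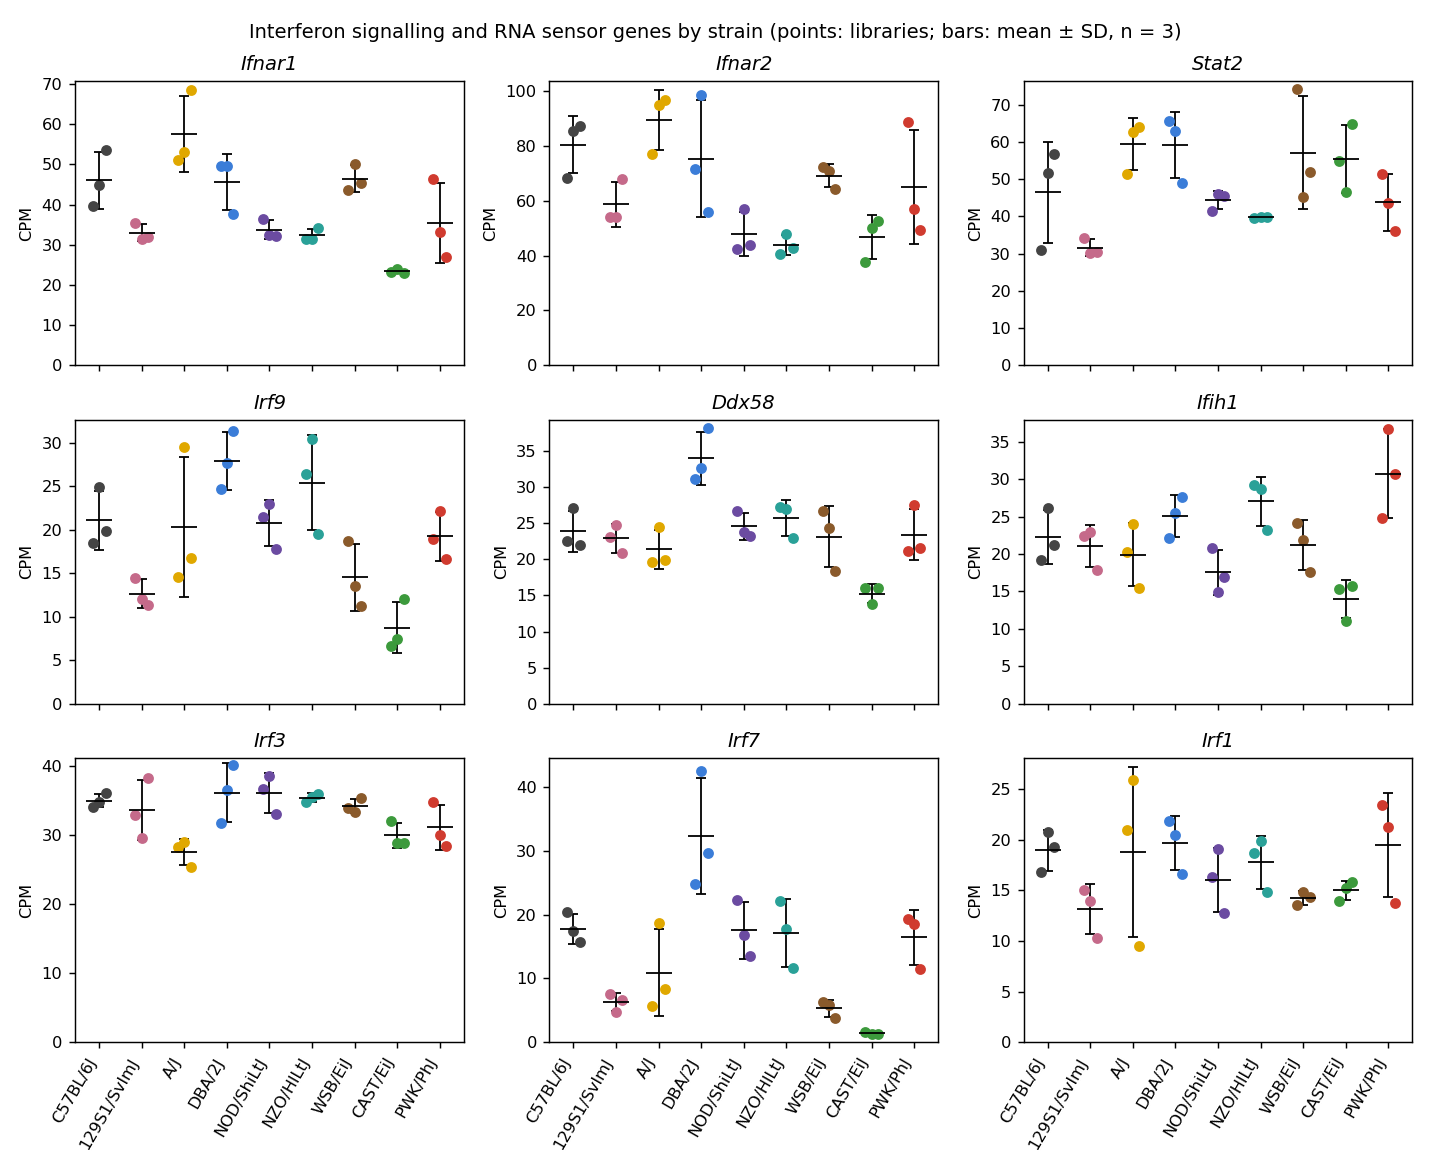
Each panel plots a gene's level in CPM (linear axis from 0) by strain, with points for libraries and bars for the mean ± SD of 3 libraries. The CAST/EiJ points lie below all others for Irf7, Ifnar1 and Ddx58, and the DBA/2J points above all others for Irf7 and Ddx58.

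Ifnar1 (ENSMUSG00000022967; GRCm38 chr16:91485238-91507441, plus strand) encodes the signalling chain of the receptor that TYK2 binds. In CAST/EiJ its 3 libraries had 23.3, 23.9 and 23.0 CPM. In A/J they had 51.2, 53.0 and 68.5 CPM. All 3 CAST/EiJ values were below every other library, the nearest being PWK/PhJ at 26.95 CPM. WSB/EiJ had 43.7, 50.1 and 45.4 CPM, C57BL/6J 39.6, 44.9 and 53.6 CPM, and DBA/2J 49.6, 49.7 and 37.7 CPM. PWK/PhJ had 46.3, 33.1 and 26.95 CPM, NOD/ShiLtJ 36.5, 32.5 and 32.3 CPM, 129S1/SvImJ 35.4, 31.6 and 31.9 CPM, and NZO/HlLtJ 31.5, 31.5 and 34.3 CPM. The strains thus ran from A/J at the top through a middle group that overlapped to CAST/EiJ at the bottom. The summed hepatocyte markers ran in the same strain order, with a median of 268400 CPM in A/J, 220200 in WSB/EiJ, 176200 in C57BL/6J, 150700 in DBA/2J, 148900 in PWK/PhJ, 136700 in NOD/ShiLtJ, 125700 in 129S1/SvImJ, 120700 in NZO/HlLtJ and 118900 in CAST/EiJ. Most of that sum is albumin (Alb, a mean of 229400 CPM in A/J and 86600 CPM in CAST/EiJ). The other markers on the list went both ways. Apoa1, Ttr and Fgb were highest in A/J like Alb, while Cps1, Tat, Ass1 and Hnf4a were lowest there. Cyp2e1 was highest in C57BL/6J and Tdo2 in WSB/EiJ. Hnf4a, a hepatocyte transcription factor, had 268.1 CPM in A/J and 428.3 CPM in CAST/EiJ. The strain effect was not called for Hnf4a (adjusted p 0.0524), Tat or Tdo2. The part of hepatocyte marker levels in the Ifnar1 differences was not tested. Of the 8 pairs of neighbours in this order, the test called NZO/HlLtJ against CAST/EiJ (adjusted p 0.0333) and no other. That call was lost when any of the 6 libraries of the pair was left out, with adjusted p from 0.0602 to 0.0960, and with the replicate number as a block. Against the mean of the other 8 strains, Ifnar1 was lower in CAST/EiJ by 0.79 ± 0.13 on the log2 scale (SE; a log2 fold change of -0.79; adjusted p 3.28e-05). It was higher in A/J by 0.67 ± 0.11 (adjusted p 0.000115). A smaller call in WSB/EiJ (0.32 ± 0.12, adjusted p 0.0482) was lost when any of 19 of the 27 libraries was left out, with adjusted p up to 0.232.

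Ifnar2 (ENSMUSG00000022971; chr16:91372783-91405589, plus strand) encodes the chain that JAK1 binds and carries most of the affinity for interferon. A/J was highest, with 77.0, 94.8 and 97.0 CPM, followed by C57BL/6J with 68.5, 85.5 and 87.4 CPM. NZO/HlLtJ was lowest, with 40.8, 48.0 and 42.9 CPM. CAST/EiJ (37.6, 50.1 and 52.7 CPM) and NOD/ShiLtJ (42.3, 56.99 and 43.9 CPM) overlapped it. The spread within DBA/2J was wide, at 71.8, 98.5 and 56.04 CPM, and so was that within PWK/PhJ, at 88.7, 57.2 and 49.4 CPM. WSB/EiJ had 72.4, 70.9 and 64.3 CPM and 129S1/SvImJ 54.0, 54.0 and 68.1 CPM. No pair of neighbours in the order was called. A/J was above the mean of the other 8 by 0.59 ± 0.15 (log2, SE; adjusted p 0.00400). NZO/HlLtJ was below it, with a log2 fold change of -0.57 ± 0.16 (adjusted p 0.0111), and so was CAST/EiJ, with -0.46 ± 0.16 (adjusted p 0.0243). The NZO/HlLtJ call was lost without NZO/HlLtJ replicate 1 (adjusted p 0.0814), and the CAST/EiJ call without CAST/EiJ replicate 1 (0.204) or replicate 4 (0.0531). Over the 27 libraries the log2 CPM of both receptor chains had a Pearson r of 0.82, given as a description because libraries of a strain share its genotype. The annotation has a predicted gene, Gm21970, on the same strand that shares 315 bp of exon with Ifnar2, and the Ifnar2 counts were not whole numbers in 15 libraries. Gm21970 itself had 84 counts over all libraries, against 46708 for Ifnar2.

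Ddx58 (ENSMUSG00000040296; chr4:40203773-40239828, minus strand) encodes RIG-I, which binds short double-stranded RNA with a 5′ triphosphate. DBA/2J was highest, with 31.1, 32.6 and 38.1 CPM, and CAST/EiJ lowest, with 16.0, 13.8 and 16.0 CPM. Both strains stood clear of all other libraries, which lay between 18.4 and 27.5 CPM. Within that band the means of the other 7 strains ran from 21.4 ± 2.75 CPM in A/J to 25.7 ± 2.44 CPM in NZO/HlLtJ (SD, n = 3 each). Among neighbours in the order, A/J against CAST/EiJ was called (adjusted p 0.0111), while DBA/2J against NZO/HlLtJ was not (0.0679). The first call was lost without A/J replicate 2 (adjusted p 0.0739), without CAST/EiJ replicate 4 (0.0601), with the replicate number as a block and with marker levels as covariates. DBA/2J was above the mean of the other 8 by 0.61 ± 0.10 (log2, SE; adjusted p 0.000157), and CAST/EiJ had a log2 fold change of -0.69 ± 0.12 (adjusted p 4.76e-05). The DBA/2J mean was 2.23 times that of CAST/EiJ (adjusted p of the pair 1.65e-06).

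Ifih1 (ENSMUSG00000026896; chr2:62595798-62646255, minus strand) encodes MDA5, which binds long double-stranded RNA. PWK/PhJ was highest, with 24.8, 36.7 and 30.7 CPM, and NZO/HlLtJ next, with 29.1, 28.7 and 23.2 CPM. CAST/EiJ was lowest, with 15.3, 11.1 and 15.7 CPM, and NOD/ShiLtJ next to it, with 20.8, 14.9 and 16.97 CPM. The sensors thus shared CAST/EiJ as the lowest strain and differed in the highest, since PWK/PhJ lay in the middle for Ddx58. DBA/2J had 22.1, 25.4 and 27.7 CPM, and the means of C57BL/6J, WSB/EiJ, 129S1/SvImJ and A/J lay between 19.9 and 22.2 CPM. No pair of neighbours was called. Ifih1 was lower in CAST/EiJ, with a log2 fold change of -0.70 ± 0.15 against the other 8 (SE; adjusted p 0.000682), and higher in PWK/PhJ, with 0.57 ± 0.13 (adjusted p 0.00160). The PWK/PhJ call was at adjusted p 0.0506 without PWK/PhJ replicate 2. A call of 0.37 ± 0.14 in NZO/HlLtJ (adjusted p 0.0467) was lost when any of 10 libraries was left out, with adjusted p up to 0.221.

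Stat2 (ENSMUSG00000040033; chr10:128270559-128292849, plus strand) encodes the STAT protein that is particular to type I and type III interferon. Its order differed from that of the sensors and of Irf7 and Irf9. Stat2 was lowest in 129S1/SvImJ, with 34.1, 30.2 and 30.3 CPM, and CAST/EiJ was among the higher strains, with 55.0, 46.7 and 65.0 CPM. A/J had 51.5, 62.7 and 64.1 CPM, DBA/2J 65.6, 63.1 and 49.1 CPM, and WSB/EiJ 74.1, 45.1 and 52.1 CPM. The NZO/HlLtJ libraries were nearly alike, at 39.5, 39.8 and 39.8 CPM, while those of C57BL/6J ranged from 31.1 to 56.7 CPM. The strain effect on Stat2 was called at adjusted p 0.00281, and 129S1/SvImJ was the only strain called against the other 8, with a log2 fold change of -0.67 ± 0.16 (SE; adjusted p 0.00368). In CAST/EiJ the log2 fold change of Stat2 was 0.25 ± 0.14 (adjusted p 0.179).

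Irf9 (ENSMUSG00000002325; chr14:55603571-55610030, plus strand) encodes the DNA-binding subunit of ISGF3. DBA/2J had 24.6, 27.7 and 31.4 CPM and NZO/HlLtJ 26.4, 30.4 and 19.5 CPM. CAST/EiJ had 6.68, 7.49 and 12.1 CPM, 129S1/SvImJ 14.5, 12.1 and 11.4 CPM, and WSB/EiJ 18.8, 13.5 and 11.3 CPM. These 3 low strains overlapped each other, and their means were below those of the other 6. In A/J, replicate 2 stood apart with 29.5 CPM beside 14.6 and 16.8 CPM in the other libraries. The means of C57BL/6J, NOD/ShiLtJ and PWK/PhJ were between 19.2 and 21.1 CPM. No neighbours in the order were called. Against the other 8, Irf9 was lower in CAST/EiJ, with a log2 fold change of -1.18 ± 0.21 (SE; adjusted p 6.19e-05), and higher in DBA/2J, with 0.72 ± 0.17 (adjusted p 0.00483; 0.0502 without DBA/2J replicate 4). The calls in NZO/HlLtJ (0.57 ± 0.17, adjusted p 0.0172) and 129S1/SvImJ (-0.57 ± 0.19, adjusted p 0.0417) were less stable. The former was lost without NZO/HlLtJ replicate 1 (0.0877) or replicate 2 (0.184), and the latter without any of 9 libraries, with adjusted p up to 0.166. Irf9 shares 123 bp of exon with Rnf31 on the same strand, and its counts were not whole numbers in 10 libraries. Rnf31 had strain means between 7.66 and 10.6 CPM.

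Irf3 (ENSMUSG00000003184; chr7:44997648-45002848, plus strand) encodes a factor that is made at a steady level and activated by phosphorylation. It was the least variable of the 9 genes, with all 27 libraries between 25.4 and 40.2 CPM. A/J was lowest, with 28.3, 29.0 and 25.4 CPM, and DBA/2J highest, with 31.8, 36.6 and 40.2 CPM. The strain effect was called at adjusted p 0.0407, close to the threshold, and was lost in 15 of the 27 fits that left out a library (adjusted p from 0.0208 to 0.0862). A/J was called against the other 8, with a log2 fold change of -0.30 ± 0.09 (SE; adjusted p 0.0159; 0.126 without A/J replicate 3). Irf3 shares 88 bp of exon with Bcl2l12 on the other strand. Reads in that stretch may belong to either gene, since the library kit is not stated to keep strand.

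Irf7 (ENSMUSG00000025498; chr7:141262706-141266481, minus strand) encodes the factor that amplifies interferon production and is itself induced by interferon. DBA/2J was highest, with 24.8, 42.4 and 29.6 CPM. CAST/EiJ was lowest, with 1.69, 1.39 and 1.29 CPM. Every DBA/2J library was above, and every CAST/EiJ library below, all libraries of other strains. WSB/EiJ (6.32, 5.85 and 3.87 CPM) and 129S1/SvImJ (7.54, 4.78 and 6.68 CPM) formed a low pair that overlapped. C57BL/6J had 20.3, 17.4 and 15.7 CPM, NOD/ShiLtJ 22.3, 16.9 and 13.5 CPM, NZO/HlLtJ 22.1, 17.7 and 11.6 CPM, and PWK/PhJ 19.2, 18.6 and 11.5 CPM. These 4 strains were not distinguished from each other by the test. A/J lay between the groups because its libraries differed, with 18.6 CPM in replicate 2 beside 5.75 and 8.34 CPM. The DBA/2J mean was 22.2 times the CAST/EiJ mean, and the fitted log2 difference of the pair, CAST/EiJ minus DBA/2J, was -4.45 ± 0.38 (SE; adjusted p 2.38e-09).

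Against the mean of the other 8 strains, Irf7 was called in 8 of 9 strains, the most of the 9 genes. The log2 fold change was -3.19 ± 0.33 in CAST/EiJ (SE; adjusted p 3.37e-08), -1.09 ± 0.27 in WSB/EiJ (0.00446) and -0.82 ± 0.26 in 129S1/SvImJ (0.0311). It was 1.82 ± 0.21 in DBA/2J (adjusted p 4.14e-07), 0.86 ± 0.22 in C57BL/6J (0.00906), 0.84 ± 0.22 in NOD/ShiLtJ (0.0117), 0.80 ± 0.22 in NZO/HlLtJ (0.0107) and 0.73 ± 0.23 in PWK/PhJ (0.0148). The low value in CAST/EiJ lowers the mean that each other strain is compared with. The calls in CAST/EiJ and DBA/2J held without any single library, while each of the other 6 was lost without at least 1 library of its own strain. The adjusted p without it was 0.0547 for C57BL/6J replicate 1, 0.167 for NOD/ShiLtJ replicate 1 and 0.0512 for WSB/EiJ replicate 4. In NZO/HlLtJ it was 0.162 without replicate 1 and 0.0594 without replicate 2, and in PWK/PhJ 0.113 without replicate 1 and 0.101 without replicate 2. In 129S1/SvImJ it was 0.0623, 0.200 and 0.0789 without replicates 1, 2 and 3. WSB/EiJ against CAST/EiJ was the only pair of neighbours called (adjusted p 0.000455). Irf7 overlaps Phrf1 on the other strand by 45 bp. Phrf1 had strain means between 12.7 and 15.1 CPM, and in CAST/EiJ it had 13.5 ± 2.11 CPM (SD, n = 3).

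Irf1 (ENSMUSG00000018899; chr11:53770014-53778374, plus strand) was the member without a called strain effect (F 1.49, adjusted p 0.235). Its strain means ran from 13.1 ± 2.47 CPM in 129S1/SvImJ, the lowest, to 19.6 ± 2.68 CPM (SD, n = 3 each) in the highest, DBA/2J. The A/J libraries alone, at 20.96, 25.8 and 9.52 CPM, covered the full range of all 27 libraries. Without A/J replicate 3, the lowest library, the strain effect on Irf1 was called at adjusted p 0.0136.

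Of the 81 combinations of gene and strain, 25 were called against the mean of the other 8, 13 higher and 12 lower. This was 30.9% of them, beside 24.1% of all genes over the same 9 contrasts. Strain by strain the count departed most in CAST/EiJ, where 6 of the 9 genes were lower and none higher, beside 17.8% of all genes called lower and 20.1% called higher there. The median log2 fold change of the 9 genes in CAST/EiJ was -0.69, against -0.01 for all genes. In DBA/2J the 3 called genes (Irf7, Irf9 and Ddx58) were all higher, beside 9.5% of all genes called higher, and all 9 had positive log2 fold changes with a median of 0.31 (0.01 for all genes). 129S1/SvImJ had 3 genes lower (Irf7, Irf9 and Stat2; 7.86% of all genes lower). A/J had both receptor chains higher (15.9% of all genes higher) and Irf3 lower (11.6% lower), and NZO/HlLtJ had Irf7, Irf9 and Ifih1 higher (14.8%) and Ifnar2 lower (12.9%). The remaining calls were Irf7 in C57BL/6J (11.6% of all genes higher) and NOD/ShiLtJ (9.2%), Irf7 and Ifih1 in PWK/PhJ (19.4%), and in WSB/EiJ Ifnar1 higher (15.5%) and Irf7 lower (9.25%). Among the 9 genes Stat2 had the only positive log2 fold change in CAST/EiJ, 0.25, which was not called (adjusted p 0.179). Per the submitters' processing notes the build was GRCm38 (mm10). The sources used here do not say whether reads of every strain were aligned to that reference. The part of alignment in the CAST/EiJ values of the 9 genes was not tested.

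**Figure D2:**
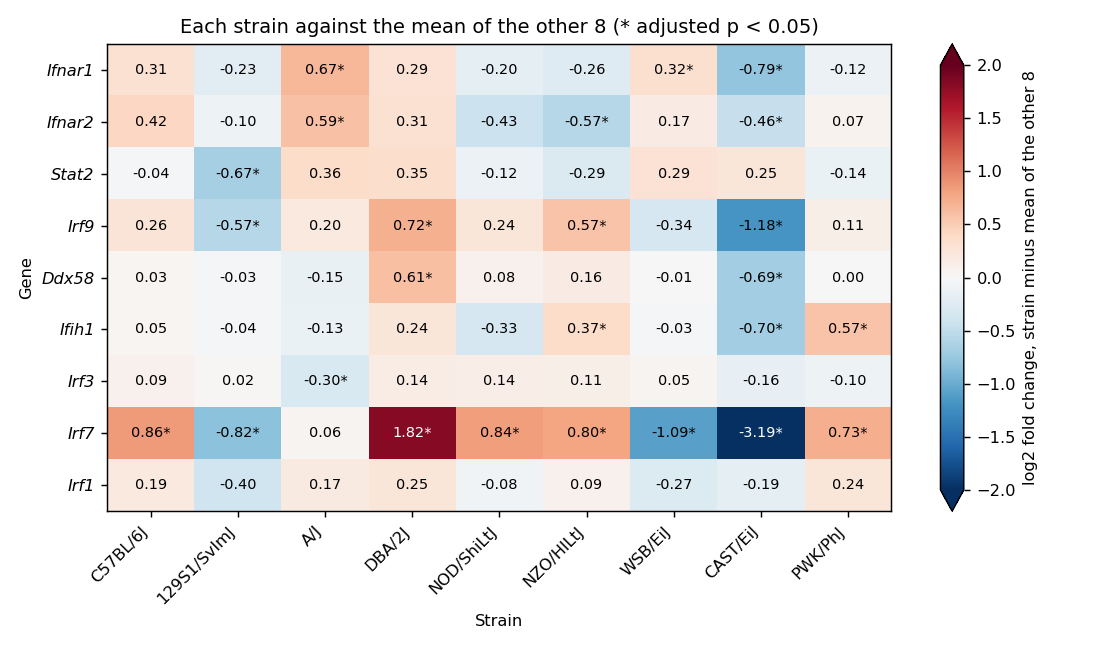
The heat map gives the log2 fold change of each strain (columns) minus the mean of the other 8 strains for each gene (rows), with an asterisk where the adjusted p was under 0.05; colours saturate at 2. The CAST/EiJ column holds 6 called decreases, and the Irf7 row has calls in 8 of 9 strains.

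Markers of other liver cells moved with some of these differences, beside the hepatocyte markers given with Ifnar1. The summed Kupffer cell markers had a median of 287.4 CPM in C57BL/6J, 221.0 CPM in A/J, 148.6 CPM in DBA/2J, 148.1 CPM in PWK/PhJ, 119.8 CPM in WSB/EiJ, 88.2 CPM in NZO/HlLtJ, 85.4 CPM in NOD/ShiLtJ, 69.3 CPM in CAST/EiJ and 54.9 CPM in 129S1/SvImJ. A/J, where both receptor chains were called higher, was thus second in the Kupffer cell sum and first in the hepatocyte sum by median. Library ranges of the Kupffer cell sum overlapped, with 155.7 to 323.6 CPM in A/J, 226.9 to 309.7 CPM in C57BL/6J and 147.2 to 429.1 CPM in PWK/PhJ. Single hepatocyte markers went both ways in A/J, as given with Ifnar1. The endothelial markers had a median of 52.5 CPM in NZO/HlLtJ, 134.2 CPM in A/J and 197.5 CPM in PWK/PhJ, and between 75.5 and 151.4 CPM in the other 6 strains. The lymphocyte and plasmacytoid dendritic cell sum had a median of 1.68 CPM in 129S1/SvImJ, 1.72 in CAST/EiJ, 2.14 in NZO/HlLtJ and 2.32 in NOD/ShiLtJ. In the other strains it was between 4.62 CPM (A/J) and 5.95 CPM (C57BL/6J). Stellate cell markers ran from a median of 23.2 CPM in NZO/HlLtJ to 71.15 CPM in DBA/2J, with 60.3 CPM in A/J. These lists were not used as covariates. With the mean log2 levels of the Kupffer cell and endothelial lists as covariates, the strain effect was still called for 8 of the 9 genes, beside 66.6% of all genes in that fit. Of the 25 strain calls 17 were kept (68.0%), beside 66.4% of the strain calls of all genes. The 6 decreases in CAST/EiJ were all kept, Irf7 at -2.82 (adjusted p 9.71e-08), though Ifnar2 went from -0.46 to -0.27 (0.0337). Kept too were the 3 increases in DBA/2J, Irf7 at 1.75 (3.23e-07). In PWK/PhJ, where the endothelial markers were high, Ifih1 went from 0.57 to 0.997 (0.000230) and Irf7 from 0.73 to 1.14 (0.00838). In A/J, Ifnar1 was kept at 0.62 (0.00179) and Ifnar2 at 0.42 (0.00778). The calls lost were Irf7 in C57BL/6J (0.35, adjusted p 0.524), 129S1/SvImJ (-0.52, 0.185) and NZO/HlLtJ (0.68, 0.0693), Irf9 in 129S1/SvImJ (-0.50, 0.164) and NZO/HlLtJ (0.55, 0.128), Ifnar2 (-0.15, 0.390) and Ifih1 (0.11, 0.737) in NZO/HlLtJ, and Irf3 in A/J (-0.30, 0.0653).

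Between pairs of strains, 102 of 324 tests on the 9 genes were called (31.5%), beside 23.4% of all genes over the same 36 pairs. Irf7 differed in 21 of 36 pairs, Ifnar1 in 18, Ddx58 in 14, Irf9 and Ifnar2 in 13 each, Ifih1 in 12, Stat2 in 8, Irf3 in 3 and Irf1 in none. Of the 72 pairs of neighbours in the orders of the 9 genes, 3 were called, so adjacent strains in an order were mostly not distinguished. For Irf1 not even the highest and lowest strains were. Of the 102 calls between pairs, 50 held under all alternatives and left-out libraries. CAST/EiJ differed in 6 genes each from C57BL/6J (38% of all genes called), A/J (42.4%), DBA/2J (32.2%) and WSB/EiJ (36.6%). None of the 9 was called between A/J and C57BL/6J (7.84% of all genes) or between PWK/PhJ and C57BL/6J (26.2%).

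Among the direct partners of the 9 proteins, Dhx58, which encodes the RIG-I relative LGP2, followed Ddx58 in its extremes. It had 14.9 ± 3.49 CPM in DBA/2J and 2.04 ± 0.513 CPM in CAST/EiJ (SD, n = 3 each; adjusted p of the strain effect 3.59e-08). Mavs, the adaptor of both sensors, was highest in CAST/EiJ, with 79.4 ± 1.94 CPM, and lowest in PWK/PhJ, with 43.3 ± 1.39 CPM (adjusted p 5.07e-05). Of the receptor kinases, Tyk2 had 22.6 ± 0.649 CPM in A/J and 13.5 ± 1.31 CPM in CAST/EiJ (adjusted p 0.00172), and so shared its extremes with Ifnar1. Jak1 had 78.7 ± 8.51 CPM in PWK/PhJ and 53.2 ± 0.0646 CPM in NZO/HlLtJ (adjusted p 0.00140).

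The wider pathway was read from 3 lists. Of the other receptors and kinases, 8 of 9 genes tested were called for the strain effect, of the sensors and adaptors 15 of 23, and of the factors and inhibitors 7 of 14, which makes 30 of 46 (the background being 74.2%, as above). The median span between the highest and lowest strain means was 2.39-fold, 1.90-fold and 1.71-fold in these lists. The largest F values among receptors were those of the interferon gamma receptor chains, Ifngr1 (A/J 19.6 ± 1.72, CAST/EiJ 6.30 ± 0.370 CPM) and Ifngr2 (A/J 24.1 ± 6.28, CAST/EiJ 8.51 ± 0.783 CPM), whose extremes were those of Ifnar1. Stat3, a STAT activated by many cytokines, went the other way and was highest in CAST/EiJ (141.4 ± 30.5 CPM). Among sensors and adaptors, Dhx58 and the helicase Ddx60 (DBA/2J 9.69 ± 0.614, CAST/EiJ 0.541 ± 0.299 CPM) came first, followed by Traf3, a ubiquitin ligase downstream of MAVS (DBA/2J 11.9 ± 1.61, PWK/PhJ 4.28 ± 0.435 CPM). Usp18, which restrains IFNAR2 signalling and is induced by interferon, had 14.6 ± 4.38 CPM in DBA/2J and 0.587 ± 0.317 CPM in CAST/EiJ (adjusted p 1.80e-07). Irf5 had 18.9 ± 9.55 and 0.440 ± 0.253 CPM in these strains, and Rnf125, a ubiquitin ligase that acts on RIG-I, had 115.0 ± 1.96 CPM in NZO/HlLtJ and 29.2 ± 7.003 CPM in CAST/EiJ (all SD, n = 3). In CAST/EiJ (20.1% of all genes higher and 17.8% lower), 1 of the 9 other receptors and kinases was higher and 3 lower, with a median log2 fold change of -0.44. Of the 23 sensors and adaptors, 5 were higher and 7 lower (median -0.07), and of the 14 factors and inhibitors 4 were higher and 5 lower (median 0.07).

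The interferons themselves were not detectable. Of 21 interferon ligand genes, 18 had 0 counts in all 27 libraries and the other 3 (Ifnk, Ifnz and Ifng) at most 2 counts in a library. A count of 0 allows up to 3 counts, or 0.0759 to 0.155 CPM depending on the library, and covers counting error only.

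Interferon response genes were detected, and all 22 of a list of them were called for the strain effect, beside 74.2% of all genes. Some were at or near 0 counts in single strains, such as Ifi44 in CAST/EiJ (0.0101 ± 0.0174 CPM). Oasl1, an oligoadenylate synthetase-like protein, had 14.8 ± 2.68 CPM in DBA/2J and 1.65 ± 0.279 CPM in CAST/EiJ (SD, n = 3 each; adjusted p 1.78e-09), and Xaf1 15.8 ± 1.28 CPM in DBA/2J and 1.11 ± 0.318 CPM in WSB/EiJ (4.54e-10). Mx2, an antiviral GTPase, departed from this order, with 37.1 ± 12.0 CPM in PWK/PhJ and 0.0743 ± 0.0424 CPM in NZO/HlLtJ (6.30e-14). That NZO/HlLtJ mean is below the CPM of 3 counts in its libraries, 0.0759 to 0.0962. In CAST/EiJ Mx2 had 30.2 ± 13.8 CPM, beside 8.61 ± 1.57 CPM in DBA/2J. Against the other 8 strains, 17 of the 22 list genes were lower in CAST/EiJ and 2 higher, beside 17.8% and 20.1% of all genes. The mean log2 CPM of the list was -0.10 in CAST/EiJ, 0.33 in 129S1/SvImJ, 0.63 in WSB/EiJ, 1.47 in NOD/ShiLtJ, 1.47 in A/J, 1.58 in NZO/HlLtJ, 1.75 in PWK/PhJ, 1.96 in C57BL/6J and 2.61 in DBA/2J. In A/J it was 2.14 in replicate 2 and 1.06 and 1.21 in the others, so the library that stood high in Irf7 and Irf9 stood high in the list too.

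The strain means of the 9 genes were set against this list mean, with 9 strains as points and an exact permutation test of r. Adjusted over the 9 genes alone, the relation was called for Irf7 (r 0.94, rho 0.87, adjusted p of r 0.00138), Irf9 (r 0.94, rho 0.85, 0.00138), Irf1 (r 0.88, rho 0.93, 0.00529) and Ddx58 (r 0.81, rho 0.73, 0.0156). For Ddx58 the rank correlation was not called (adjusted p of rho 0.0560, the same as for Ifih1), and for the other 3 it was (0.00675 for Irf1 and 0.0182 for Irf7 and Irf9). It was not called for Ifih1 (r 0.65, rho 0.73, adjusted p 0.107), Ifnar1 (r 0.55, rho 0.40, 0.193), Ifnar2 (r 0.41, rho 0.47, 0.348), Irf3 (r 0.35, rho 0.40, 0.404) or Stat2 (r 0.18, rho 0.17, 0.643). The same test was run on all 14460 genes tested outside the list. There the unadjusted exact p was under 0.05 with a positive r for 514 genes (3.55%) and with a negative r for 633. It was so with a positive r for 4 of the 9 genes, namely Irf7 (unadjusted exact p 0.000201), Irf9 (0.000306), Irf1 (0.00176) and Ddx58 (0.00695). Adjusted over all 14460 genes, 0% were called, and the lowest adjusted p of the 9 genes, from the exact permutation test, was that of Irf7, 0.224. The 9 genes were chosen with earlier results known, so the calls adjusted over them alone describe these genes and are not evidence of a trait of them. Irf1 had no called strain effect. Without 129S1/SvImJ and CAST/EiJ, the strains farthest from the median, r was 0.94 for Irf7, 0.91 for Irf1, 0.86 for Irf9 and 0.72 for Ddx58, and -0.02 for Ifnar1. The Ddx58 relation rested on the end points: it was lost without DBA/2J (r 0.70, adjusted p 0.0712) or without CAST/EiJ (r 0.67, 0.164). The gap in the list mean between WSB/EiJ and NOD/ShiLtJ is the widest between adjacent strains, although single libraries bridge it, with up to 0.96 in WSB/EiJ and down to 0.95 in NZO/HlLtJ. Within the 6 strains above that gap, none of the 9 relations was called (Irf7 r 0.85, adjusted p 0.237; Ddx58 0.85, 0.242; Irf1 0.78, 0.242; Irf9 0.67, 0.266). Of the 4 genes called over all strains when adjusted over the 9 alone, the promoter window of Ddx58 held the ISRE core and that of Irf1 the GAS core printed above, while those of Irf7 and Irf9 held neither. Of the genes not called, Stat2 and Ifih1 held the ISRE core, Ifnar1 and Ifnar2 the GAS core, and Irf3 neither. The cores thus did not separate the called genes from the others. The members and the list were measured in the same libraries and share their depth and cell content.

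**Figure D3:**
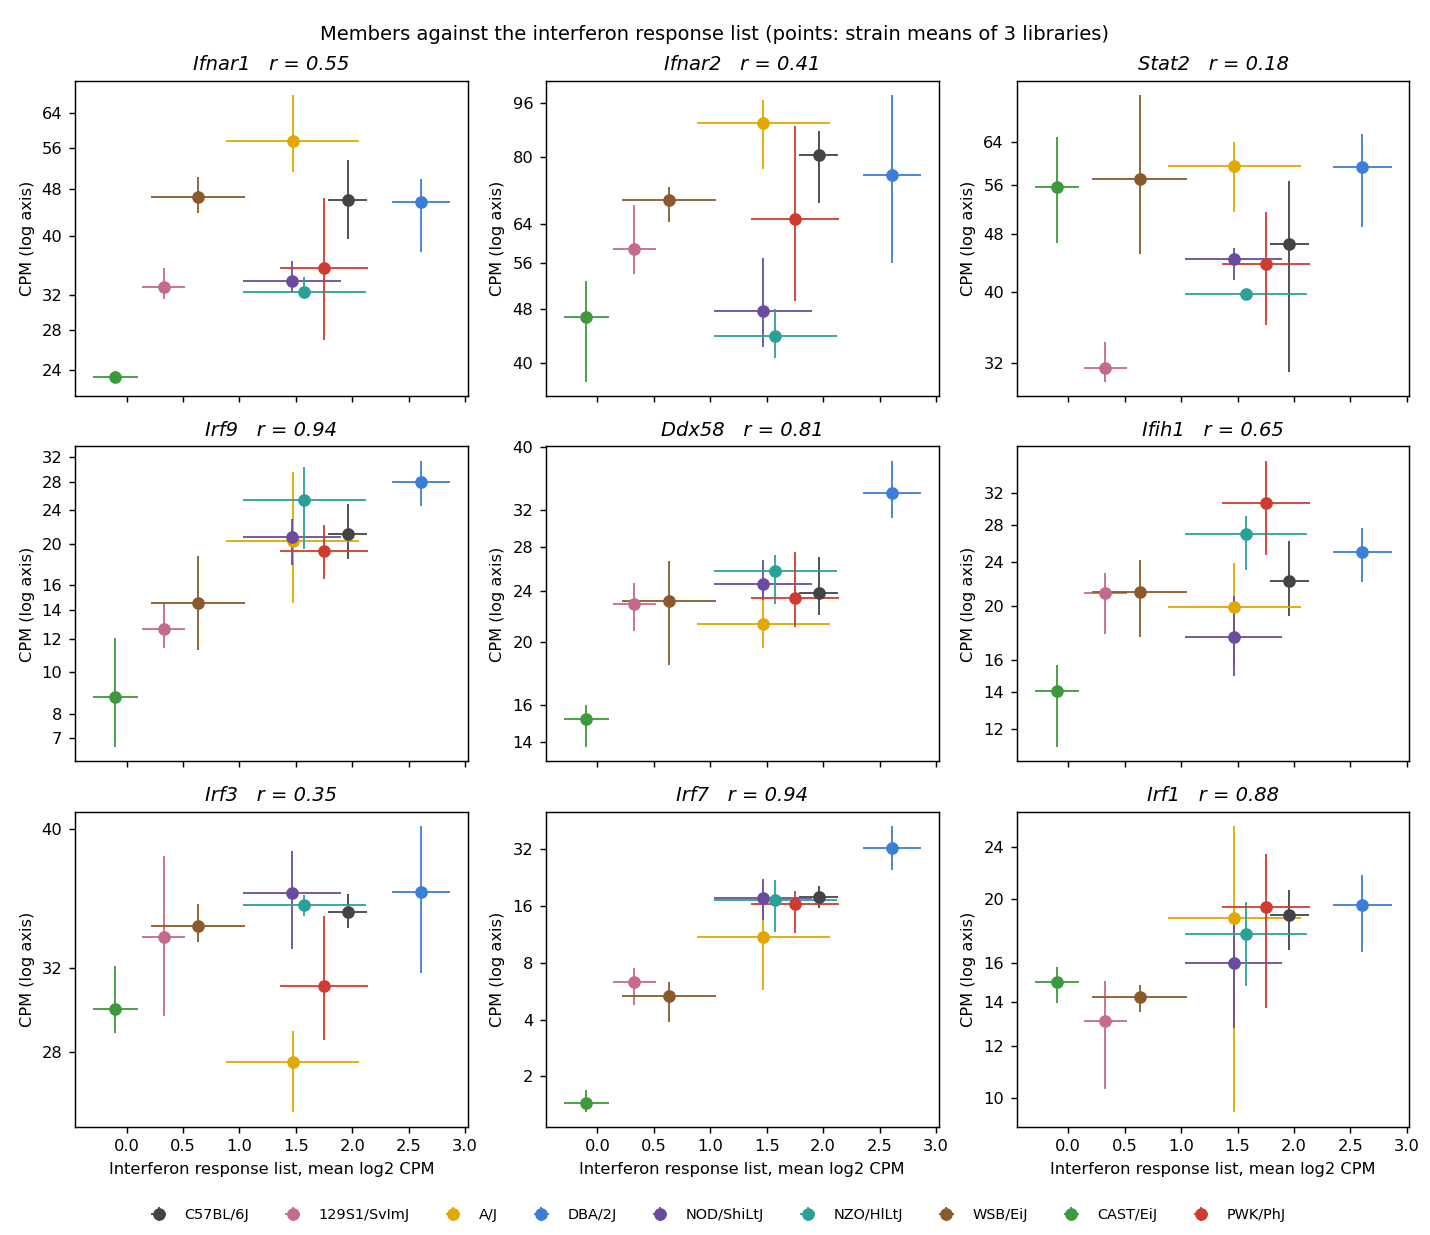
Each panel plots the level of a gene (CPM, log axis) against the mean log2 CPM of 22 interferon response genes, with a point for each of 9 strains. Vertical bars run from the lowest to the highest library and horizontal bars are SD (n = 3); Irf7 and Irf9 rise along the axis (r 0.94 each), while Stat2 does not follow it (r 0.18).

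Among the 9 genes, Irf7, Irf9 and Ddx58 were most alike over the 27 libraries (log2 CPM, Pearson r 0.90 for Irf7 with Irf9, 0.84 for each with Ddx58), and Ifih1 had r between 0.64 and 0.72 with them. The receptor chains formed a second pair (r 0.82), with r of 0.45 or less to Irf7 and Irf9. Stat2 had r of 0.42 with Ifnar1 and 0.46 with Ifnar2, and -0.05 with Irf7. Among 10513 genes, the most alike to Irf7 were Ifi44 (r 0.96) and Dhx58 (0.95), to Irf9 Rtp4 (0.94) and Ddx60 (0.92), and to Ddx58 Dhx58 (0.90) and Ifit1 (0.86). All of these are known interferon response genes. The genes most alike to the receptor chains were of other kinds: the complement protease C1s1 (r 0.94) and the insulin receptor Insr (0.94) for Ifnar1, and Cyp2d26 (0.90) and Derl1 (0.90) for Ifnar2. Stat2 was most like Serpina10 (0.84) and Mesd (0.83), Ifih1 like Hacd1 (0.80) and Thnsl1 (0.78), and Irf3 like Nat9 (0.73) and Rtl8a (0.72). Irf1 had the lowest best match, Ifit2 (0.67) and then Irgm2 (0.64), both interferon response genes. These correlations describe 27 libraries of 9 strains and carry no test.

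Scaled to the exonic length of each gene, levels can be compared between genes. Ifnar2 had the highest mean over the 27 libraries, with 19.3 ± 5.57 CPM per kb (SD), followed by Irf3 (9.66 ± 1.07), Stat2 (8.20 ± 2.01) and Ifnar1 (6.62 ± 1.86). Irf1 (4.27 ± 0.996), Irf7 (3.69 ± 2.57), Irf9 (3.52 ± 1.26), Ddx58 (3.37 ± 0.743) and Ifih1 (2.71 ± 0.695) were lower. The order changed with strain: in DBA/2J Irf7 had a mean of 8.55 and Ifnar1 of 7.69 CPM per kb, while in CAST/EiJ Irf7, at 0.385, was the lowest of the 9 genes. The length is the union of all annotated exons, which counts introns kept in some transcripts (Irf7 is a single block of 3776 bp), so levels of such genes are understated.

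**Figure D4:**
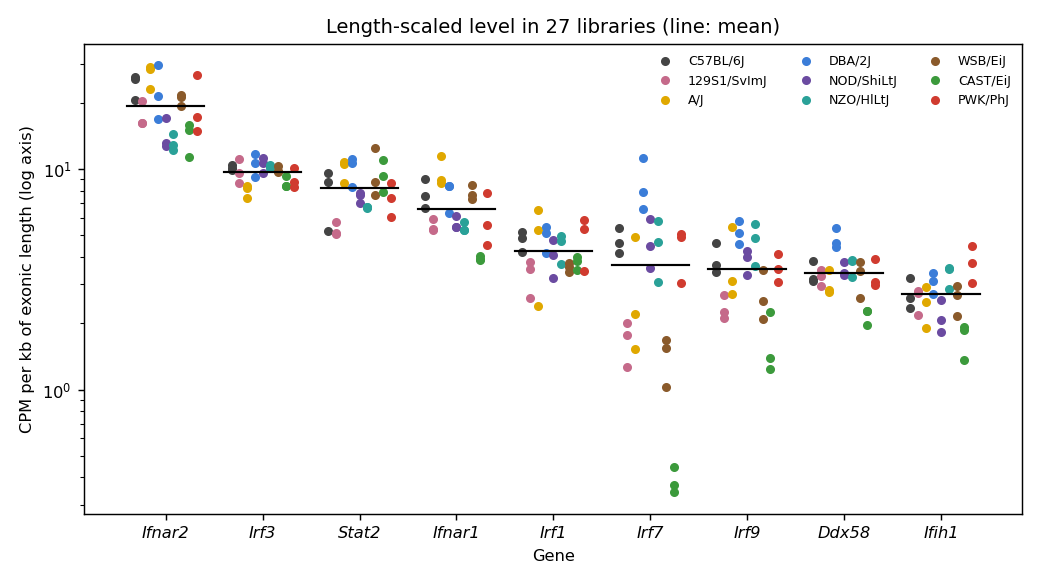
Points give the level of each gene in CPM per kb of exonic length (log axis) in 27 libraries, coloured by strain, with a line at the mean. Ifnar2 lies highest at a mean of 19.3, and the Irf7 points spread widest, from 0.341 to 11.2.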

How the data were processed

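Polyadenylated hepatocyte RNA was sequenced in 27 libraries made with a TruSeq RNA kit, per the labels' protocols. The authors deposited estimated counts (expected counts) per Ensembl gene in a single table, not scaled to depth; 14.7% of the values were not whole. Per the submitters' processing notes the build was GRCm38 (mm10), and FastQC 0.11.5 and DESeq2 were used. The aligner, the counting program and the annotation release are not given in the sources used here. Symbols, coordinates and exon lengths came from GENCODE M21.

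Counts were rounded, which changed library totals by at most 0.00026%. Genes were kept with filterByExpr by strain (14482 of 43346). A quasi-likelihood model with strain as the factor was fitted to all 27 libraries in edgeR 4.0.16 (R 4.3.3, limma 3.58.1) with TMM factors from 0.722 to 1.23. All strain coefficients were tested together, each strain against the mean of the other 8, and the 36 pairs; these contrasts share libraries. P-values were adjusted by Benjamini-Hochberg over all genes and called under 0.05. CPM are TMM-scaled; correlations were taken on log2 CPM (prior count 2). Every pair of libraries of a strain differed beyond counting noise. Scripts were tested on simulated data.

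The members and gene lists were chosen with earlier results of these data known. Besides the 9 members, named genes were the direct partners Jak1, Tyk2, Mavs and Dhx58 (a further partner is not reported here), the 3 genes of each list with the largest F among those called, the 2 genes most alike to each member, and genes overlapping a member. Alternatives were RLE size factors, DESeq2 1.42.0, no filter or a minimum mean of 10 counts, and a block for the replicate number. Others were cell marker covariates and leaving out each library. Calls between pairs were also fitted on the libraries of the pair alone. A whole strain was left out only for the relation to the response list, and not for the calls of a strain against the others. Protein sequences were not used here.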

Additional observations from a re-analysis of the deposited data

How the results depend on the processing

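The strain effect was called for 7 or 8 of the 9 genes in all fits, including 7 without a filter on low counts, where Irf3 was lost (adjusted p 0.240). Calls against the other 8 strains numbered 25, and 19 to 29 when a library was left out; 10 of the 25 were kept under all alternatives, among them Irf7, Irf9, Ifnar1, Ddx58 and Ifih1 in CAST/EiJ and Irf7 and Ddx58 in DBA/2J. Of 102 calls between pairs of strains, 50 were kept under all. With DESeq2 the counts were 8, 26 and 111. The relation to the response list was called for 4 genes, for 0 with p adjusted over all genes, and for 0 in the 6 strains with the highest list mean, both chosen after seeing the data. The direction turned in 1 result: Ifnar2 in PWK/PhJ minus NZO/HlLtJ went to -0.30 with the marker covariates (adjusted p 0.259); the cause was not tested.

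With the replicate number as a block, 7 members, 22 strain calls, 87 pairs and 29 other pathway genes were called, and Irf3 (adjusted p 0.113), Ifnar1 in WSB/EiJ (0.0880), Ifnar2 in CAST/EiJ (0.124) and Ifih1 in NZO/HlLtJ (0.0647) lost their calls. Replicate number 5 occurs only in CAST/EiJ, so its block term takes up that library. In this fit CAST/EiJ rests on its replicates 1 and 4. Libraries with the same number in different strains had a mean correlation of deviations of 0.01 over 76 pairs (-0.293 to 0.275), so the numbers are not taken as pairing samples. The lowest Irf7 library held 25 counts, so among the 9 genes depth limited no comparison to the level of a count of 0. Depth did so for the ligands and for some response genes in single strains, such as Ifi44 in CAST/EiJ. The list mean and the likeness of Ifi44 to Irf7 include such values.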
